A study of Saccharomyces cerevisiae with 27 samples.

Results

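Meiosis and sporulation genes were followed in yeast cells that were growing and not sporulating. The list held 52 genes, chosen by name for their known roles, and a probe set was taken where the gene symbol of the array platform was on the list. Each of the 52 genes had a probe set, and 1 was taken for each, so 52 of the 5716 probe sets tested are described here. The signals of all but 1 of them lay below the median of the array, and 19 lay at or near the signal of deleted genes, as set out below.

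RNA came from 27 cultures of Saccharomyces cerevisiae in exponential growth at 30 °C in rich medium with an amino acid supplement, in 9 groups of 3. On the later of the study's 2 experiment dates the groups were wild type (strain w303a), eco1-W216G and the fob1 deletion. On the earlier date they were the fob1 deletion again, eco1-W216G with the fob1 deletion, the rad61 deletion, eco1-W216G with the rad61 deletion, and strains labelled as mcd1 mutant with Rec8 from the Mcd1 promoter, without and with the fob1 deletion. The ECO1 product acetylates cohesin so that sister chromatids stay joined, Fob1 stalls replication forks in the ribosomal DNA, and RAD61 encodes the yeast counterpart of the cohesin release factor Wapl. MCD1 encodes the mitotic kleisin subunit of cohesin and REC8 its meiotic counterpart. Each genotype is 1 strain. P-values therefore measure only the spread between cultures of the same strain, pooled over the 9 groups. That spread may in part be technical. The labels do not give the optical density at which each culture was collected.

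In Saccharomyces cerevisiae, diploid a/alpha cells that run out of nitrogen and of a fermentable carbon source enter meiosis and package the products into spores. IME1 starts the programme by activating early genes for recombination and chromosome pairing, and NDT80 then activates middle genes for the meiotic divisions and spore formation. In growing cells the early genes are held off by UME6 with a histone deacetylase and many middle genes by SUM1, and haploid cells also express RME1, a repressor of IME1. Most markers of a cells lay above the median signal of all probe sets, 10.29. The pheromone gene MFA2 and the receptor gene STE2 had mean log2 signals of 14.0 to 14.2 and 13.6 to 13.8 over the groups. Of the a-cell markers, BAR1, which encodes a pheromone protease, stood apart at 3.98 to 4.12, as low as a deleted gene. The alpha pheromone gene MF(ALPHA)1 lay at 4.03 to 4.75, while SAG1, the alpha agglutinin, lay at 9.25 to 9.78.

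All values below are log2 of the deposited RMA intensity. Because probe sets differ in brightness, the signal of a gene is set only against the floor and the range of the whole array, never against the signal of another member, and low signal is not taken as little RNA. Differences were tested with limma's moderated test in 1 model of all 27 arrays, with Benjamini-Hochberg adjustment over the 5716 probe sets and a threshold of 0.05, and errors of differences are standard errors of that fit. "Called" means past that threshold. ECO1 signal was 4.61 ± 0.07 (SD, n = 3) in eco1-W216G against 7.85 ± 0.10 in wild type, FOB1 3.84 to 4.22 in the strains deleted for it against 9.91, and RAD61 3.93 and 3.77 against 7.24. The ECO1 signal in eco1-W216G was thus within 1 log2 unit of the highest deleted-gene signal (4.35), although the label names a point mutation. The reason was not tested. MCD1 signal was 11.00 and 11.01 in the strains labelled mcd1 against 11.34 in wild type, so MCD1 signal did not bear out the label; its probe set need not cover the mutated part. In the rad61 deletion, replicate 2 was higher than the other replicates over chromosome IX, at 187 of its 191 probe sets and by a median of 0.82. HOP1 is the 1 member on that chromosome and read 7.26 there, against 5.86 and 5.92 in replicates 1 and 3.

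How many of these genes gave signal above the floor was asked first. The floor was taken from genes that were not there: the highest log2 signal of FOB1 over 12 arrays and of RAD61 over 6 arrays of strains deleted for them was 4.35, and the lowest was 3.67. By their mean over 27 arrays, 12 of the 52 members lay at or below that value and 7 more lay within 1 log2 unit above it, up to 5.35. The other 33 were higher. Over all tested probe sets, 4.18% lay at or near the floor. In all 9 groups 16 members were at or near the floor, and 31 were above it in all 9. The share at or near the floor ran from 34.6% of members in eco1-W216G and in the later fob1 deletion to 40.4% in the strain labelled mcd1 with REC8.

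The genes at the floor came from several steps of the programme. Among the regulators it was IME4, which encodes the messenger RNA adenosine methyltransferase. Among the strand exchange genes it was 4 of 7, HOP2 and MND1, whose products act as a pair, and MEI5 and SAE3, which load the recombinase Dmc1. MEK1, a kinase of the chromosome axis, and CSM4, needed for chromosome movement, were at the floor too. So were SPO74, of the meiotic spindle pole plaque, the septin gene SPR28, and the spore wall genes GAS4, DIT2 and SPS2. Near the floor were MER1, a meiotic splicing factor, REC114, SPO13, SPO20, SPO77, CDA2 and SPO19. By a looser rule, the lowest 20% of all tested probe sets (log2 8.71 or less), 48 of 52 members were dim. The remaining 4 were UME6, SPO16, GAS2 and SPR6. UME6 works in growing cells, and its mean over 27 arrays was 9.75. SPR6, a gene named for its expression in sporulation and of unknown function, was at 10.31.

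**Figure D1:**
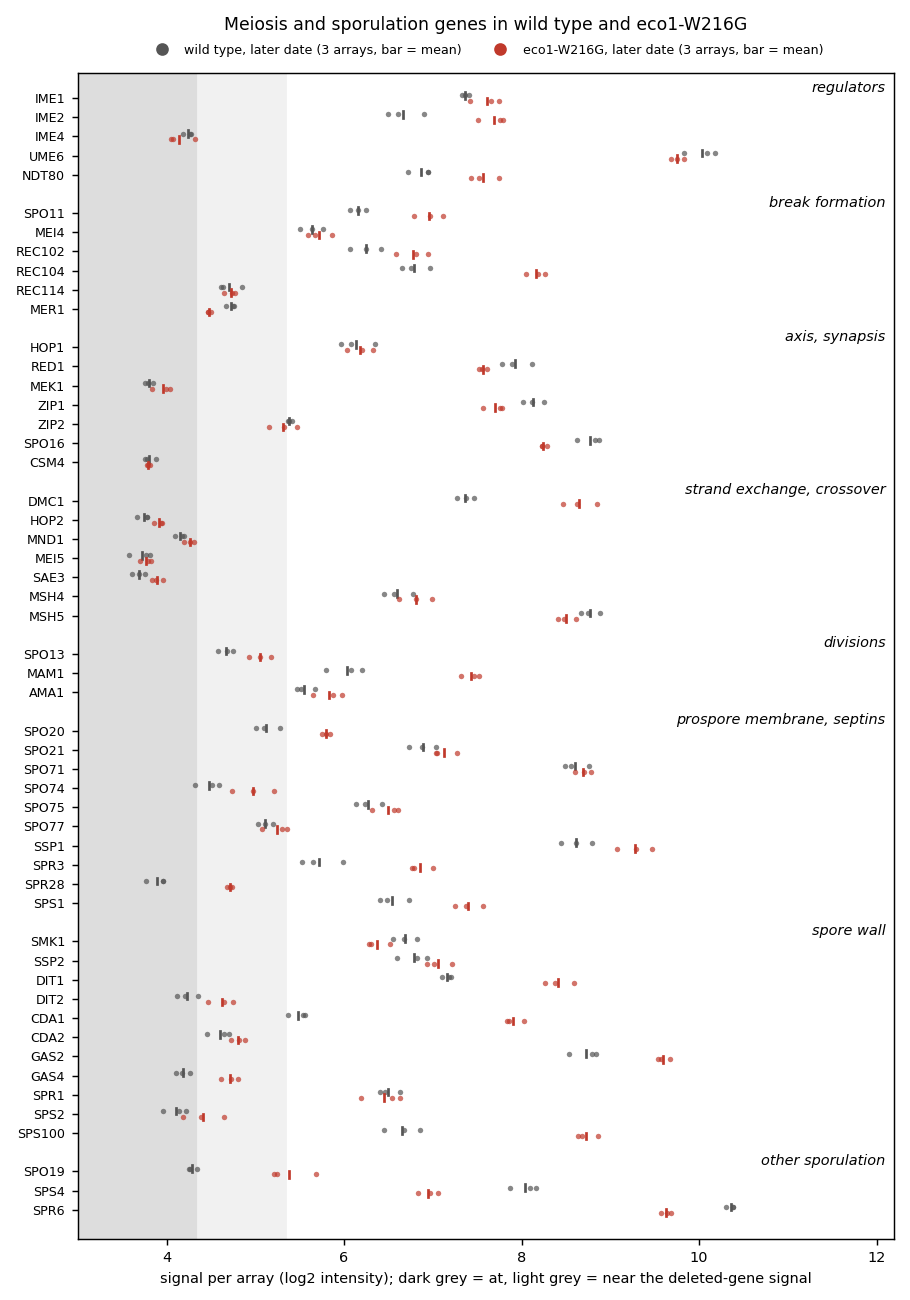
Signal of the 52 meiosis and sporulation genes in wild type and eco1-W216G, with 1 point per array (3 per group), grouped by role, on a log2 intensity scale. Grey bands mark the floor (4.35 and below) and the zone near it (up to 5.35); CDA1, SPS100, MAM1, REC104, DMC1 and DIT1 show the eco1-W216G points clear above the wild-type points, and SPS4 and SPR6 show them below.

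The largest differences were between eco1-W216G and wild type, both from the later date. The gene furthest above wild type in eco1-W216G was CDA1, a chitin deacetylase of the spore wall, at 5.36-fold, followed by SPS100, a spore wall protein, at 4.19-fold. The monopolin gene MAM1, the break formation gene REC104, the recombinase gene DMC1 and the dityrosine gene DIT1 were 2.37- to 2.65-fold higher, and the sporulation gene SPS4 was 2.13-fold lower. Of the 52 members, 32 were called, beside 53.6% of all tested probe sets. The members leaned upward: 24 rose (46.2%, with 23.7% of all probe sets) and 8 fell (15.4%, with 30% of all). Dim probe sets as a whole leaned the same way. Among the lowest 20% of probe sets 32.6% rose and 20.4% fell, and of the 48 members among them 23 rose (47.9%) and 6 fell (12.5%). The members' median difference was 0.23, beside −0.05 over all probe sets.

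The size of the members' upward lean changed with the scaling of the arrays. When quantile normalization was repeated on the deposited values, the median difference of the 463 probe sets with a mean log2 signal between 6 and 8 went from 0.14 to −0.15, and that of the members from 0.23 to 0.06. Over all probe sets the median difference was then −0.07. The calls were then 20 higher and 10 lower: NDT80, REC102, MEK1 and SPS2 were no longer called, and ZIP2 and SPR1 were called lower. The shares of all probe sets called in that fit are not set beside these counts. Of the 32 members above the floor zone in both groups, 8 were called at least 2-fold higher: IME2, REC104, DMC1, MAM1, SPR3, DIT1, CDA1 and SPS100. They are 25% of those members, beside 4.83% of the 5440 probe sets of that kind, and each was still called under the repeated normalization. All 8 were among the lowest 20% of probe sets by signal, and no such share was taken for dim probe sets alone. SPS4 was the 1 member (1.92%) called at least 2-fold lower, beside 0.49%.

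Among the regulators, IME2 and NDT80 rose and IME1 did not pass the test. IME1, the activator at the head of the programme, read 7.33, 7.40 and 7.37 in wild type and 7.66, 7.42 and 7.74 in eco1-W216G. The arrays did not overlap, but the difference of 0.24 ± 0.11 had an adjusted p of 0.0806 in limma. IME2, a protein kinase that acts downstream of IME1, read 6.90, 6.61 and 6.50 in wild type and 7.75, 7.79 and 7.51 in eco1-W216G, a difference of 1.02 ± 0.14 (adjusted p = 5.34e-06, limma). All 3 eco1-W216G arrays lay above all 24 other arrays of the study. NDT80 read 6.95, 6.94 and 6.72 in wild type and 7.43, 7.52 and 7.75 in eco1-W216G, a difference of 0.70 ± 0.19 (adjusted p = 0.00357, limma). Under the repeated normalization the NDT80 difference was 0.42, with an adjusted p of 0.0575. UME6 read 10.18, 9.83 and 10.09 in wild type and 9.68, 9.83 and 9.76 in eco1-W216G, lower by a margin that missed the threshold (−0.28 ± 0.13, adjusted p = 0.085 in limma). IME4 stayed at the floor in both groups, at 4.19, 4.27 and 4.26 against 4.04, 4.07 and 4.32.

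**Figure D2:**
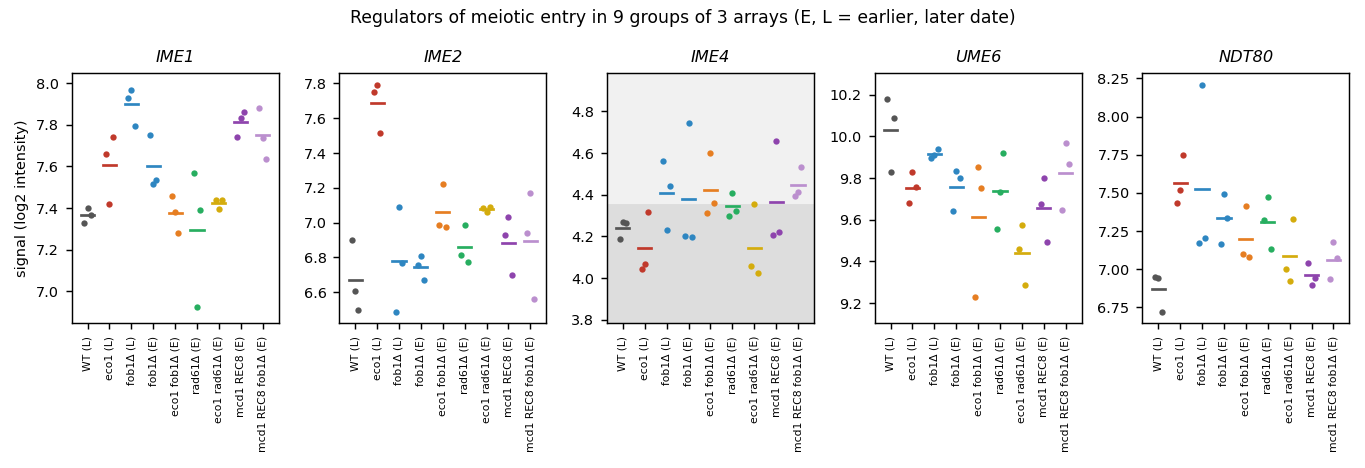
Log2 signal of the regulators IME1, IME2, IME4, UME6 and NDT80 in each of the 27 arrays, by group, with points for arrays and a bar for the group mean. IME2 is highest in the 3 eco1-W216G arrays; NDT80 is highest in replicate 2 of the later fob1 deletion, at 8.21.

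Of the 6 genes for break formation, 3 rose and 1 fell, beside 23.7% and 30% of all probe sets. REC104, a partner of the break-making enzyme Spo11, read 6.97, 6.75 and 6.65 in wild type and 8.26, 8.05 and 8.19 in eco1-W216G, a difference of 1.37 ± 0.12 (adjusted p = 3.29e-09, limma). Every eco1-W216G array was above every other array of the study. SPO11 itself rose by 0.80 and REC102 by 0.54. MER1 was called lower, by 0.25, at a level near the floor in both groups. MEI4 and REC114, accessory factors of break formation, differed by 0.08 and 0.02 and were not called.

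Of the 7 genes of the chromosome axis and of synapsis, 3 fell and 1 rose, beside 30% and 23.7% of all probe sets, and whether this mix differs from that of other members was not tested. SPO16, which promotes crossovers, fell by 0.53, from 8.83, 8.87 and 8.63 to 8.23, 8.23 and 8.28, and these 3 eco1-W216G arrays were below all 24 others. ZIP1, the central element of the synaptonemal complex, fell by 0.42 and RED1, an axis component, by 0.37. MEK1 was called higher, but its arrays overlapped and stayed at the floor, at 3.75 to 3.85 in wild type and 3.84 to 4.04 in eco1-W216G. HOP1, which pairs with Red1 on the axis, differed by 0.06 ± 0.23 and was not called.

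Among 7 strand exchange and crossover genes, 2 rose (28.6%, near the 23.7% of all probe sets) and 1 fell, beside 30% of all. DMC1, the recombinase of meiosis, read 7.46, 7.37 and 7.27 in wild type and 8.46, 8.62 and 8.85 in eco1-W216G. Its difference was 1.28 ± 0.12 (adjusted p = 1.47e-08, limma), and no other array of the study reached the eco1-W216G arrays. The Dmc1 partners HOP2, MND1, MEI5 and SAE3 stayed at the floor in both groups; of these SAE3 was called higher, at 3.61 to 3.75 in wild type and 3.83 to 3.96 in eco1-W216G. MSH5 fell by 0.27, and MSH4, whose product forms a dimer with Msh5, differed by 0.21 and was not called.

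Of the 3 genes for the meiotic divisions, MAM1 and SPO13 rose, beside 23.7% of all probe sets. MAM1, which joins sister kinetochores in meiosis I, read 6.21, 5.80 and 6.08 in wild type and 7.32, 7.47 and 7.52 in eco1-W216G, a difference of 1.41 ± 0.13 (adjusted p = 1.6e-08, limma). The eco1-W216G arrays again lay above all others. SPO13, which acts with monopolin in meiosis I, rose by 0.38 from a level near the floor. AMA1, a meiotic activator of the anaphase-promoting complex, differed by 0.28 with an adjusted p of 0.0846 (limma).

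Genes for the prospore membrane, the double membrane that grows around each spore, and for its septins showed 6 of 10 higher and none lower. Of all probe sets 23.7% were higher and 30% lower. SPR3, a sporulation septin, read 5.99, 5.53 and 5.65 in wild type and 6.77, 7.01 and 6.79 in eco1-W216G, a difference of 1.13 ± 0.12 (adjusted p = 1.51e-07, limma). SPS1, a protein kinase, rose by 0.86, SPO20, a membrane fusion protein, by 0.67, and SSP1, of the coat at the leading edge of the membrane, by 0.66. SPR28, the other septin, was called higher by 0.82 and SPO74 by 0.50, both from wild-type levels at or near the floor. SPO21, SPO71, SPO75 and SPO77 differed by 0.09 to 0.24 and were not called.

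In the spore wall group 7 of 11 rose and 1 fell, beside 23.7% and 30% of all probe sets. CDA1 read 5.56, 5.37 and 5.53 in wild type and 8.03, 7.86 and 7.84 in eco1-W216G, a difference of 2.42 ± 0.14 (adjusted p = 1.02e-11, limma). SPS100 read 6.85, 6.45 and 6.67 in wild type and 8.86, 8.64 and 8.68 in eco1-W216G, a difference of 2.07 ± 0.19 (adjusted p = 1.47e-08, limma). DIT1, the first enzyme of the dityrosine layer, read 7.11, 7.18 and 7.21 in wild type and 8.38, 8.26 and 8.59 in eco1-W216G, a difference of 1.25 ± 0.17 (adjusted p = 3.21e-06, limma). For each of these genes the eco1-W216G arrays were above all 24 others. GAS2, a glucan-remodelling enzyme, rose by 0.87 and its relative GAS4 by 0.53 from the floor. DIT2, the next enzyme of the dityrosine pathway and the chromosomal neighbour of DIT1 on chromosome IV, rose by 0.40 from the floor. SPS2, the neighbour of SPS1 on the same chromosome, was called higher by 0.30 with overlapping arrays. SMK1, the mitogen-activated kinase of spore wall assembly, fell by 0.31. CDA2, the other chitin deacetylase of the wall, differed by 0.21 near the floor and was not called (adjusted p = 0.0505, limma).

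The last group held 3 genes named for their expression in sporulation. SPO19, which encodes a membrane protein of the spore, read 4.26, 4.26 and 4.34 in wild type and 5.21, 5.25 and 5.69 in eco1-W216G, a difference of 1.09 ± 0.10 (adjusted p = 2.37e-08, limma). Since wild type was at the floor, this is no measure of the fold change of its RNA. SPS4 read 8.16, 7.86 and 8.09 in wild type and 6.96, 7.06 and 6.83 in eco1-W216G, a difference of −1.09 ± 0.26 (adjusted p = 0.00136, limma). SPR6 fell by 0.73, from 10.39, 10.30 and 10.39 to 9.57, 9.64 and 9.68, and its eco1-W216G arrays were below all 24 others. For SPS4, single arrays of the later fob1 deletion (6.90) and of the rad61 deletion (6.82) were as low as the eco1-W216G arrays.

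The floor weighed differently on these calls. In 7 members both groups were at the floor, and the 2 calls among them were MEK1 and SAE3, both higher. Of the 107 probe sets of that kind 13.1% rose and 9.35% fell. In 13 members at least the lower group was at or near the floor; of these 8 rose and 1 fell, where 38.5% and 16% of the 169 probe sets of that kind did so. In the remaining 32 members both groups were above it, and 14 rose and 7 fell, where 23.4% and 30.8% of 5440 probe sets did so. In all, 16 members (30.8%) had all 3 eco1-W216G arrays above all 24 other arrays, as had 9.95% of all probe sets. For 2 members, SPO16 and SPR6 (3.85%), they were below all others, as for 10.8% of all probe sets. Neither share was taken for dim probe sets alone. In bulk RNA a larger share of cells with these transcripts and more transcript per cell cannot be told apart.

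**Figure D3:**
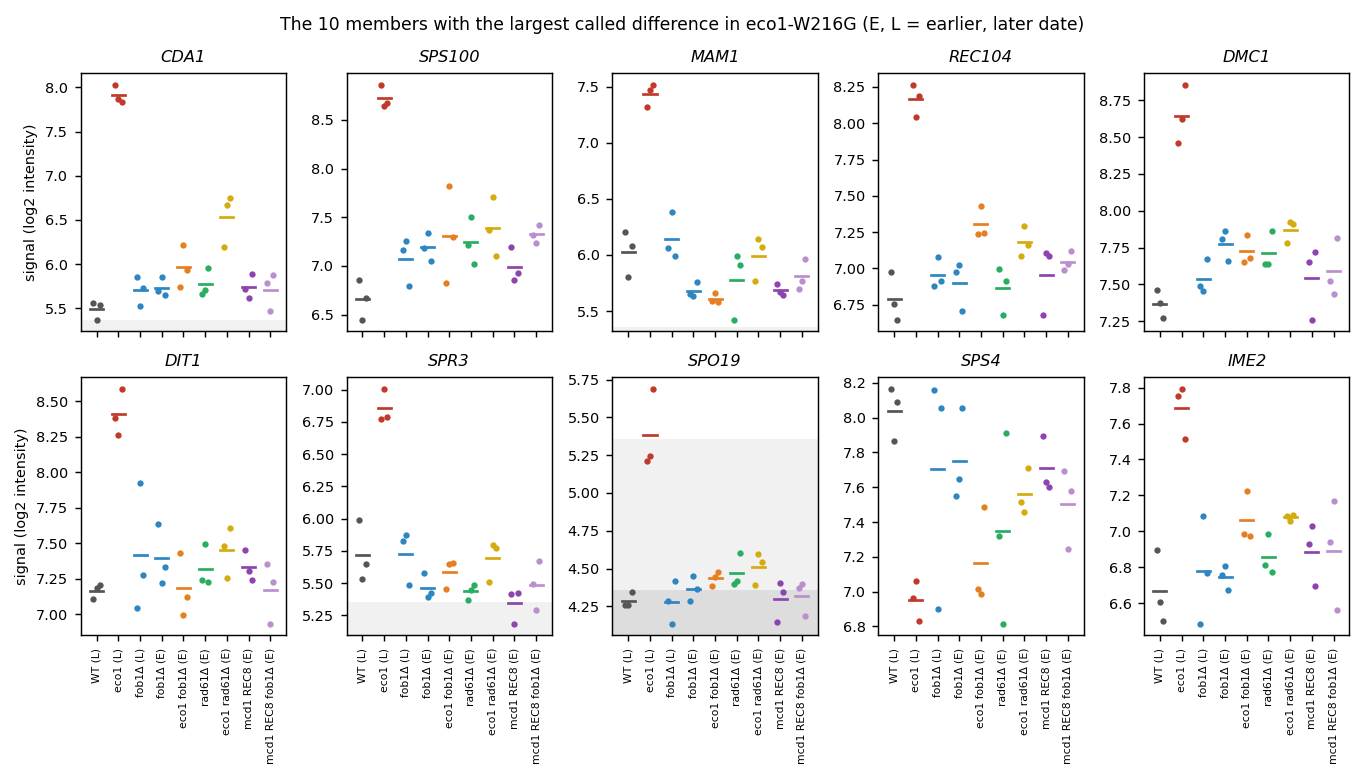
Log2 signal of the 10 members with the largest called differences between eco1-W216G and wild type (CDA1, SPS100, MAM1, REC104, DMC1, DIT1, SPR3, SPO19, SPS4 and IME2), in each of the 27 arrays by group, with points for arrays and a bar for the group mean. For 9 of them the 3 eco1-W216G arrays are the highest of the study; for SPS4 the eco1-W216G arrays are low and other groups reach the same level.

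Other genes of the programme were taken from a list of 55, of which 53 had a probe set, and here the directions were mixed. In eco1-W216G 19 rose (35.8%, with 23.7% of all probe sets) and 16 fell (30.2%, with 30% of all), with a median difference of 0.08, beside −0.05 over all probe sets. The largest differences were in RIM4, an RNA-binding protein that controls translation in meiosis (2.82 ± 0.19), SGA1, the glucoamylase of sporulation (2.19 ± 0.20), LOH1 (2.06 ± 0.15) and OSW2, of the outer spore wall (2.04 ± 0.12). The repressor gene SUM1, named after its value was seen, fell by 0.51, and RME1 differed by 0.18 without a call.

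Genes of stress and of growth without glucose moved in the same arrays. All 18 stress genes listed rose in eco1-W216G, by 0.73 to 4.42, and HSP26, a small heat shock protein, went from 8.46 ± 0.07 to 12.88 ± 0.11 (SD, n = 3). Of 14 glucose-repressed genes 11 rose, among them ADH2, the alcohol dehydrogenase of growth on ethanol, by 1.63 ± 0.35. Of the 8 haploid-cell genes none rose and 5 fell, led by HO, the mating-type switching endonuclease, at −1.59 ± 0.12. Of the alpha-cell markers 3 of 4 rose, by 0.45 to 0.65, and of the a-cell markers MFA1 rose by 0.37 and STE6 fell by 0.31. The alpha marker MF(ALPHA)1 lay at or near the floor in every group. Of all probe sets 23.7% rose and 30% fell. The part of these genes in the result was not tested.

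The design also asks whether eco1-W216G changes these genes when FOB1 or RAD61 is missing. These comparisons lie within the earlier date. With FOB1 deleted, eco1-W216G changed no member past the threshold, beside 0.787% of all probe sets called; 9 members had an unadjusted p under 0.05. The nearest was GAS2, at 8.75, 8.83 and 8.76 in the fob1 deletion and 9.22, 9.25 and 9.09 in the double mutant, a difference of 0.41 ± 0.10 (adjusted p = 0.0585, limma). Replicate numbers counted as paired here by the correlation of the arrays' deviations, and with the replicate number as a block GAS2 was the 1 member called. CDA1 read 5.69, 5.85 and 5.65 in the fob1 deletion and 5.74, 6.22 and 5.93 in the double mutant, so the arrays overlapped. SPS100 read 7.19, 7.34 and 7.05 against 6.82, 7.82 and 7.30, with the spread of the double mutant wider than the difference of 0.12. None of the 18 stress genes was called in this comparison.

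With RAD61 deleted, eco1-W216G changed 5 of 52 members, beside 6.72% of all probe sets; 3 rose, as did 5.18% of all, and 2 fell, as did 1.54%. CDA1 rose from 5.66, 5.70 and 5.96 to 6.19, 6.67 and 6.75, a difference of 0.76 ± 0.14 (adjusted p = 0.00164, limma) with no overlap between the arrays. SPO20 rose by 0.40 ± 0.10 (adjusted p = 0.0159, limma), from 4.86, 4.84 and 5.26 to 5.34, 5.42 and 5.41. GAS2 rose by 0.34 ± 0.10 (adjusted p = 0.0465, limma), from 8.73, 8.95 and 8.94 to 9.10, 9.32 and 9.23. SPR6 and SPO16 fell. SPR6 went from 10.45, 10.40 and 10.68 to 9.89, 10.16 and 10.20, a difference of −0.43 ± 0.11 (adjusted p = 0.0167, limma). SPO16 went from 8.88, 8.83 and 8.85 to 8.66, 8.49 and 8.43, a difference of −0.33 ± 0.08 (adjusted p = 0.0159, limma).

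Of these 5 calls CDA1 held when any 1 array was left out, and the others did not. Only 2 calls were left without replicate 1 of the rad61 deletion, or without replicate 2 or 3 of the double mutant, and 3 without replicate 1 of the double mutant. Without replicate 2 of the rad61 deletion, the array that stands apart, 4 were left. Replicate numbers counted as paired here too, and with that block 7 members were called, with RED1 and ZIP2 added on the lower side. With only the 6 arrays compared in the fit no member was called, and CDA1 had an adjusted p of 0.0549 (limma). Stress genes moved here as well, with 10 of 18 higher, and HSP26 at 10.29 ± 0.76 and 11.39 ± 0.06 (SD, n = 3); their part was not tested. Of the other programme genes 3 rose and 1 fell: RIM4 by 1.49, RIM11 by 0.30 and SPO73 by 0.28, and CSM2 fell by 0.58. CSM2 lies on chromosome IX, over which replicate 2 of the rad61 deletion was higher. In the rad61 deletion it read 0.27 ± 0.15 above the earlier fob1 deletion, without a call. The part of that array in the CSM2 fall was not tested.

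**Figure D4:**
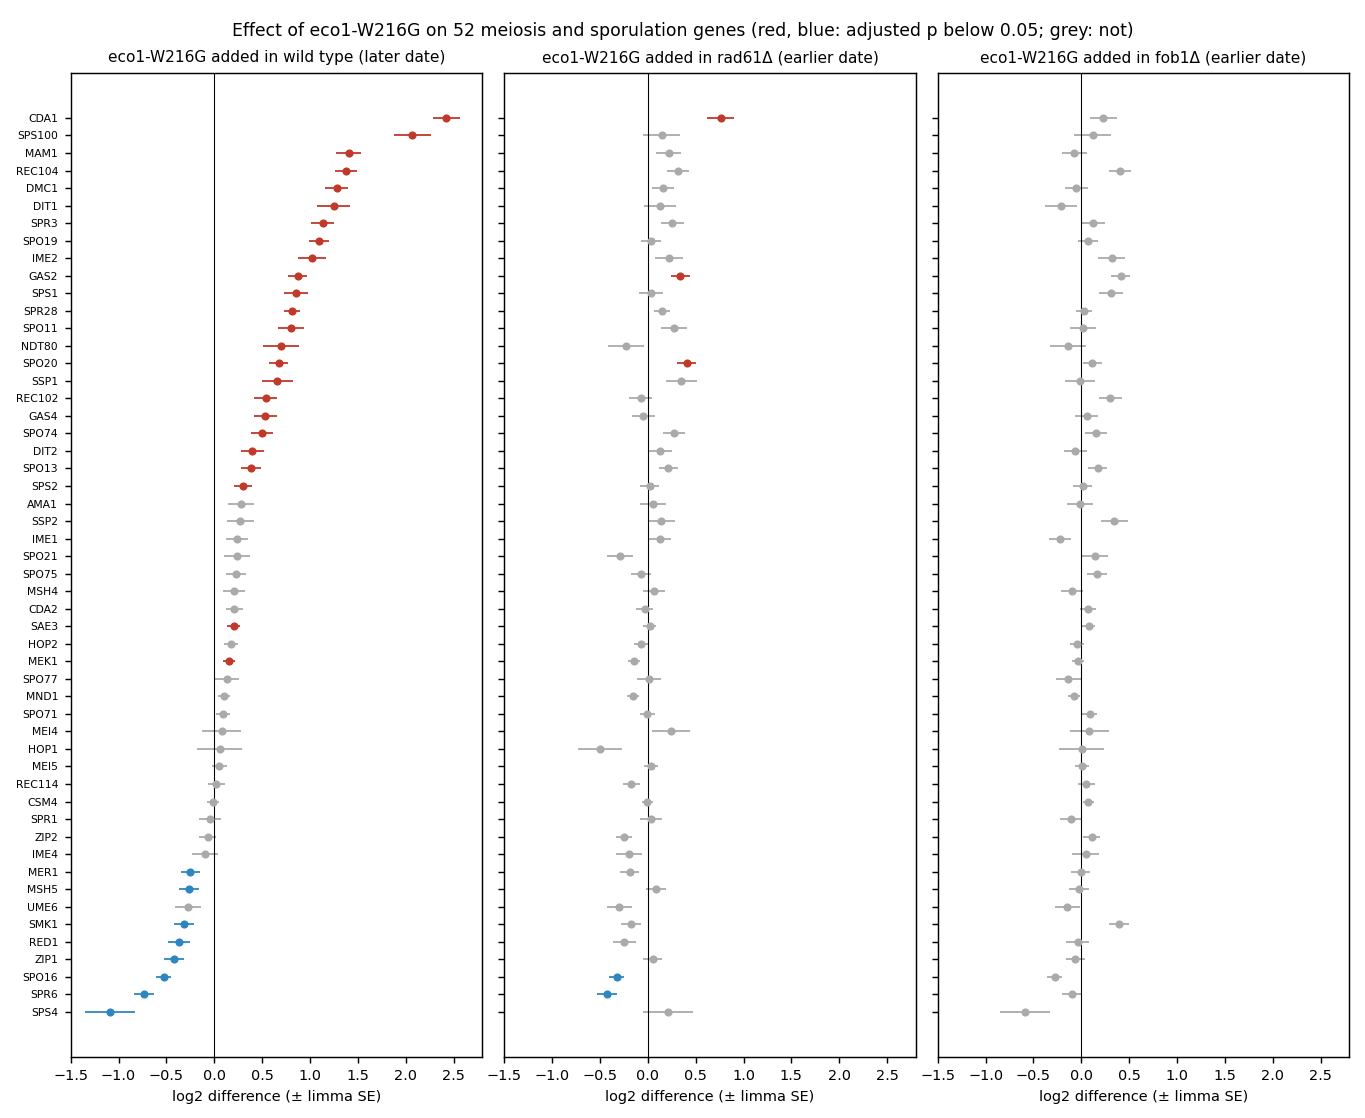
Log2 difference that eco1-W216G made in each of the 52 members, ± SE of the limma fit, against wild type, within the rad61 deletion and within the fob1 deletion (3 arrays per group). CDA1 stands at 2.42, 0.76 and 0.23 in that order, and most members lie near 0 in both deletion backgrounds.

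The eco1-W216G difference was smaller in both backgrounds for the genes that led it, by a test of the difference itself. Those genes led by the same difference that the test subtracts, so the choice of them favours a smaller difference elsewhere. With the fob1 deletion, 22 members had an eco1-W216G difference that was not the one seen against wild type, 19 lower and 3 higher, beside 39.2% of all probe sets. Of the probe sets as a whole 18% were lower and 21.2% higher, and of the lowest 20% by signal 24.7% and 13.5%, where 18 and 2 of the 48 members among them were. The difference changed by −2.19 ± 0.20 for CDA1 (adjusted p = 4.93e-08, limma), −1.95 ± 0.27 for SPS100, −1.48 ± 0.19 for MAM1, −1.46 ± 0.24 for DIT1 and −1.33 ± 0.17 for DMC1. IME1 changed by −0.47 ± 0.16 (adjusted p = 0.0262, limma), a call lost without any of 5 single arrays. IME2 changed by −0.70 ± 0.20 (adjusted p = 0.00951, limma) and NDT80 by −0.83 ± 0.27 (adjusted p = 0.0166, limma). The 3 higher ones were SMK1 (0.71), SPR6 (0.63) and ZIP1 (0.36), which had fallen against wild type. Under repeated quantile normalization the split was 12 lower and 6 higher, and IME1, IME2 and NDT80 were not among the calls. The members' median change was then −0.12, beside 0.05 over all probe sets. The shares of all probe sets called in that fit are not set beside this split.

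With the rad61 deletion 20 members changed, 18 lower and 2 higher, beside 23.5% of all probe sets, of which 11.6% were lower and 11.8% higher. Among the lowest 20% by signal 21.8% were lower and 6.99% higher, and of the 48 members there 17 were lower and 2 higher. The change was −1.92 ± 0.27 for SPS100, −1.66 ± 0.20 for CDA1 and −1.19 ± 0.19 for MAM1, while SPS4 was higher by 1.30 ± 0.37 (adjusted p = 0.0136, limma). IME2 changed by −0.80 ± 0.20 (adjusted p = 0.00735, limma). Of the other programme genes 15 were lower and 12 higher in the first test, led by RIM4 at −2.31, OSW2 at −2.02, LOH1 at −1.95 and SGA1 at −1.71. In the second 14 were lower and 6 higher, led by SGA1 at −2.03, OSW2 at −1.70, LOH1 at −1.60 and ADY2, an acetate transporter, at −1.43. Both tests use the same wild-type and eco1-W216G arrays, so they are not independent of each other. The double mutants and their controls were all grown on the earlier date and the other pair on the later, so the background and the date cannot be told apart in them. All 18 stress genes were lower in the first of these tests and 12 of 18 in the second, as were 7 and 9 of the 14 glucose-repressed genes; their part was not tested.

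The fob1 deletion itself was compared with wild type within the later date. Of 52 members 3 were called, 2 higher and 1 lower, beside 15.6% of all probe sets (8.73% higher and 6.91% lower), and 9 had an unadjusted p under 0.05. IME1 read 7.93, 7.97 and 7.79 in the fob1 deletion, above all wild-type arrays, a difference of 0.53 ± 0.11 (adjusted p = 0.00613, limma). ZIP1 read 8.11, 8.01 and 8.25 in wild type and 7.54, 7.92 and 7.64 in the deletion, a difference of −0.43 ± 0.10 (adjusted p = 0.00886, limma). NDT80 was called at 0.66 ± 0.19 (adjusted p = 0.0218, limma), but it read 7.17, 8.21 and 7.20, and without replicate 2 the difference was 0.32 with an adjusted p of 0.132. That culture also stood apart from its group in DIT1 (7.92), SPS1 (7.09) and SPS4 (6.90).

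These calls were not firm. With only the 6 arrays compared in the fit none was called, and IME1 had an adjusted p of 0.0804 (limma). Without wild-type replicate 3 IME1 alone was left, and without replicate 3 of the deletion 5 members were called. Under repeated quantile normalization the IME1 difference was 0.38, with an adjusted p of 0.0709 (limma). Of the other programme genes RIM11, a kinase that acts on Ime1 and Ume6, rose by 0.31, while the B-type cyclin gene CLB6 fell by 0.42 and RFM1, a partner of Sum1, by 0.26. Of the stress genes 5 of 18 and of the glucose-repressed genes 3 of 14 were higher in the same arrays.

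The fob1 deletion was the 1 genotype grown on both dates. Between its earlier and later cultures 3 members differed, beside 4.81% of all probe sets (2.99% lower on the earlier date): MAM1 by −0.46 ± 0.13 (adjusted p = 0.0454, limma), MSH5 by −0.40 ± 0.10 (adjusted p = 0.0307) and SPO71, which acts in prospore membrane growth, by −0.30 ± 0.08 (adjusted p = 0.0296), all lower on the earlier date. MAM1 read 5.65, 5.64 and 5.76 on the earlier date and 6.06, 6.38 and 5.99 on the later. MSH5 read 8.18, 8.36 and 8.24 against 8.58, 8.97 and 8.44, and SPO71 8.41, 8.42 and 8.39 against 8.64, 8.85 and 8.64. No arrays overlapped, but all 3 calls were lost without any 1 of the earlier replicates, or without replicate 2 of the later ones.

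The strains labelled as mcd1 mutant with REC8 were compared next, though the arrays bear out that label only in part. REC8 signal was 5.89 ± 0.09 in the strain labelled mcd1 and 5.70 ± 0.09 in its fob1 double mutant, against 5.23 ± 0.18 in wild type, 5.32 ± 0.10 in the earlier fob1 deletion and 5.66 ± 0.08 in eco1-W216G (SD, n = 3). REC8, a gene of the programme list, was called higher in the strain labelled mcd1 fob1 than in the fob1 deletion, by 0.57 ± 0.12 (adjusted p = 0.0303, limma). For the strain labelled mcd1 against wild type, with the date difference subtracted, neither REC8 (0.53 ± 0.17, adjusted p = 0.144 in limma) nor MCD1 (−0.25 ± 0.10, adjusted p = 0.21) was called. Against the fob1 deletion, the strain labelled mcd1 fob1 had no member called, beside 0.297% of all probe sets, and 3 had an unadjusted p under 0.05. The largest of those differences were 0.41 for SSP2, an activator of Smk1, and 0.34 for SMK1. The fob1 deletion in the strain labelled mcd1 also called none, beside 0.0175% of all probe sets and with 1 at an unadjusted p under 0.05.

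The strain labelled mcd1 and wild type were grown on different dates, so the date difference of the fob1 deletion was subtracted. No member was called, beside 0.07% of all probe sets, and 4 had an unadjusted p under 0.05. IME1 came nearest, at 7.74, 7.83 and 7.86 in the strain labelled mcd1, a corrected difference of 0.74 ± 0.16 (adjusted p = 0.061, limma). That contrast includes the difference of the fob1 deletion from wild type on the later date, which for IME1 was 0.53 ± 0.11. IME1 was called when only the arrays compared were fitted, and also without replicate 3 of the later fob1 deletion.

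The rad61 deletion likewise called no member, either against wild type with the date difference subtracted (beside 0.315% of all probe sets, with 4 members at an unadjusted p under 0.05) or against the earlier fob1 deletion (beside 0.035%, with 3). In that group IME1 read 7.57, 6.93 and 7.39, and replicate 2 is the array with the higher chromosome IX. The mean IME1 signal over the 9 groups ran from 7.29 ± 0.33 in the rad61 deletion, through 7.37 ± 0.04 in wild type, to 7.90 ± 0.09 in the later fob1 deletion. The arrays of neighbouring groups in that order overlapped, except those of eco1-W216G with the rad61 deletion (7.42 ± 0.02) and of the earlier fob1 deletion (7.60 ± 0.13). IME2 ran from 6.67 ± 0.21 in wild type to 7.08 ± 0.02 in eco1-W216G with the rad61 deletion, and stood at 7.69 ± 0.15 in eco1-W216G.

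Over all 9 groups, eco1-W216G had the highest mean for 30 of the 52 members, while it was the highest group for 24.9% of all probe sets. That share was not taken for dim probe sets alone. The profile of CDA1 over the 9 group means was most like those of NQM1 (Pearson r = 0.998), SSA4 (0.997), PAI3 (0.993), YDR042C (0.992) and YBR085C-A (0.989). SSA4 is one of the stress genes listed. IME1 had no such close company: its nearest were FZF1 (0.885), HRK1 (0.879), PRP4 (0.845), CNA1 (0.833) and RFC3 (0.827). These are descriptions over 9 points that share arrays and normalization.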

How the data were processed

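Affymetrix yeast arrays received biotinylated cRNA made from 300 ng of hot phenol-extracted RNA, per the labels' protocols. The authors deposited intensity on a linear scale (10.373 to 39895), 1 value for each probe set, and per the submitters' processing notes RMA and R 2.15.2 were used. Whether both dates were normalized together is not given in the sources used here. The tests were planned for log2 values, so log2 was taken first. Array medians ran from 1226.55 to 1276.5, and arrays of a group correlated at 0.986 to 0.998; the number of arrays limits the precision. The 51 control and 47 reporter rows among 5814 were removed. The platform's gene table gave 1 symbol to 5498 of the 5716 tested and none to 218.

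limma 3.58.1 in R 4.3.3 fitted 9 group means with 18 residual degrees of freedom, for 12 contrasts. Tests were two-sided with Benjamini-Hochberg adjustment. Contrasts across dates subtract the fob1 deletion's earlier-minus-later difference, and interactions subtract 1 within-date difference from another. The fit was tested on simulated data.

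The members, gene lists and floor rule were chosen with earlier results of these data known. By the naming rule, single-array values are given for the regulators and up to 10 called members per contrast, with up to 4 other programme genes; array values of other members were added after they were seen. Replicate numbers counted as paired where every same-numbered pair of deviations correlated above 0.1: 0.35, 0.64 and 0.53 for eco1-W216G within the fob1 deletion, 0.38, 0.37 and 0.32 within the rad61 deletion, 0.14, 0.55 and 0.39 between the strains labelled mcd1, and 0.57, 0.11 and 0.23 between the rad61 and fob1 deletions. Alternatives were other scalings, priors, filters, blocks and leaving out arrays. Promoter motifs were not analysed here.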

Additional observations from a re-analysis of the deposited data

Results flagged for a closer look

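The eco1-W216G difference against wild type was not the same as that within the fob1 deletion for 22 of the 52 members, by limma's interaction contrast, and 39.2% of all probe sets were called in it, a share close to that of the members. The members called lower were 36.5%, beside 18% of all probe sets. Among the lowest 20% of probe sets by signal 24.7% were lower, and of the 48 members there 37.5%. The 10 largest of these changes in difference, on the log2 scale, were −2.19 for CDA1, −1.95 for SPS100, −1.48 for MAM1, −1.46 for DIT1, −1.33 for DMC1, −1.03 for SPO19, −1.01 for SPR3, −0.97 for REC104, −0.83 for NDT80 and −0.79 for SPR28. All 10 genes had risen against wild type, and all 10 changes are downward. For MAM1 the change was larger than its rise of 1.41. NDT80 was not called in this contrast under repeated quantile normalization. SPR28 lay at or near the floor in every group, and SPO19 in every group but eco1-W216G.

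Within the rad61 deletion the difference was not the same for 20 members, beside 23.5% of all probe sets. Of the members 34.6% were lower, beside 11.6% of all. Among the lowest 20% of probe sets by signal 21.8% were lower, and of the 48 members there 35.4%. The 10 largest changes were −1.92 for SPS100, −1.66 for CDA1, 1.30 for SPS4, −1.19 for MAM1, −1.12 for DMC1, −1.12 for DIT1, −1.06 for REC104, −1.06 for SPO19, −0.92 for NDT80 and −0.88 for SPR3. SPS4 is the one that moved upward, by more than its fall of 1.09 against wild type. The rad61 deletion arrays for it spread widely, at 7.32, 6.82 and 7.91. Both sets of values rest on the same eco1-W216G and wild-type arrays, and background and date cannot be told apart in them. Genes with a large difference against wild type are favoured in both, since that difference is the one subtracted.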

How the results depend on the processing

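Of 45 named results under 721 alternatives, 662 kept their call, 59 missed the threshold and none reversed. Leaving out 1 array at a time gave 28 to 32 called members for eco1-W216G against wild type, 1 to 5 for the fob1 deletion, 0 to 0 for eco1-W216G within the fob1 deletion, 2 to 4 within the rad61 deletion, 0 to 4 for the fob1 date difference, 0 to 1 for the strain labelled mcd1, 18 to 21 for the interaction with fob1 and 17 to 21 for that with rad61; the other contrasts stayed at 0. IME1 in the fob1 interaction was lost without any of 5 arrays (adjusted p up to 0.0757, limma). Median centring and repeated quantile normalization each left 1 call for the fob1 date difference, and the latter gave 1 (GAS2) for eco1-W216G within the fob1 deletion. Leaving out the lowest 20% kept 4 members, of which 3 were called for eco1-W216G, 0 for the fob1 deletion, 3 within the rad61 deletion, 0 for the date, and 2 and 1 for the interactions. With only the arrays compared, calls were 0 for the fob1 deletion, 2 for eco1-W216G within it, 0 within the rad61 deletion, 0 for the date and 1 for the strain labelled mcd1. With the replicate block they were 6 for the fob1 deletion, 1 for eco1-W216G within it, 7 for the date and 2 for the strain labelled mcd1; in the paired contrasts it ended no other call. For eco1-W216G against wild type the block gave 36, where the numbers did not count as paired (r = 0.22, −0.24 and 0.24). Without subtracting the date difference the strain labelled mcd1 had 6 calls and the rad61 deletion 7; with date as a random block, 2 and 1. Chosen after seeing the data, leaving out both arrays that stand apart gave 3 calls for eco1-W216G within the fob1 deletion, 1 for the strain labelled mcd1 fob1, 2 for the strain labelled mcd1 and 1 for the rad61 deletion, and leaving out probe sets at or near the floor left 21 of 33 members called for eco1-W216G. At or near the floor were 19 members, or 48 by the lowest 20%. The share of all probe sets called in the same setting is not set beside these counts. They therefore do not show how the members stand against the whole array. The causes were not tested, except that filters test fewer members.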

Other observations

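CRR1, a spore wall gene outside the member list and chosen after its values were seen, was lower in eco1-W216G than in wild type by 1.22 ± 0.28 on the log2 scale (limma SE), at 6.84 ± 0.76 against 8.06 ± 0.07 (SD, n = 3). One eco1-W216G array, replicate 2, was at 5.97.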
